A study of Mus musculus with 4 samples.

Results

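The glycoprotein hormone subunit genes of the mouse pituitary are Cga, Lhb, Fshb and Tshb. They were taken by symbol, 4 of the 32285 genes in each deposited matrix, and all 4 were found in every library. The data were single-cell RNA counts of pituitary glands from wild-type C57BL/6J male mice, measured after 12 weeks on a high-fat diet (HFD) or a control diet (CTRL). Each diet had 2 libraries, called HFD 1, HFD 2, CTRL 1 and CTRL 2, made with a droplet kit (10x Genomics 3' v3.1) that tags each captured RNA molecule with a unique molecular identifier (UMI). Every group shared genotype, strain and sex. The labels give neither the age of the mice, nor the composition of the diets, nor the number of glands in a library. Nothing in them says that the libraries of a diet came from separate animals, so each p-value covers the scatter among these 4 libraries alone, and that scatter could be technical.

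Luteinizing hormone (LH), follicle-stimulating hormone (FSH) and thyroid-stimulating hormone (TSH) are pairs of protein chains. The alpha chain, encoded by Cga, is common to all of them. The beta chain gives each hormone its receptor and its name, and is encoded by Lhb, Fshb or Tshb. Gonadotropes make LH and FSH and often hold both in the same cell, while thyrotropes make TSH. Gonadotropin-releasing hormone acts on gonadotropes through Gnrhr, its receptor, and its fast pulses favour Lhb while slow pulses and activin favour Fshb. Thyrotropin-releasing hormone raises Tshb through Trhr, its receptor, and thyroid hormone lowers it. The alpha chain is generally made in excess of the beta chains, whose supply limits assembly of the hormones.

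In GENCODE vM21 on mm10, Cga lies at chr4:34893779-34907370 on the plus strand and Lhb at chr7:45420820-45421897 on the plus strand. Fshb lies at chr2:107056140-107059656 and Tshb at chr3:102775465-102782718, both on the minus strand. The 3' end of Lhb overlaps that of Ruvbl2, a gene on the opposite strand, by 138 bases. Whether counting used the strand is not given in the sources used here, so a few Lhb counts may be reads of Ruvbl2, which had 18.9 to 23.5 CPM (UMIs per 1e6 UMIs) in the gonadotrope-like cells described below.

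The promoters are shown because these 4 genes share a subunit partner and are used in different cells, and because the pathway genes described at the end include factors known to bind such elements. The 250 bases before each RefSeq start on GRCm38.p6 are printed 5' to 3' on the strand of the gene. Capitals mark matches to the element near many start sites, TATAAA, and to AAGGNCA (the type bound by Nr5a1), CNCCCNCAC (the type bound by Egr1), TGANGTCA (the cAMP response type) and AGATAA (the type bound by GATA factors), searched on both strands. The windows were chr4:34893529-34893778 (plus) for Cga, chr7:45420696-45420945 (plus) for Lhb, chr2:107059652-107059901 (minus) for Fshb and chr3:102782715-102782964 (minus) for Tshb. The RefSeq starts of Lhb, Fshb and Tshb lie inside the GENCODE intervals given above. For Fshb and Tshb only the last few bases of the windows fall within them. The GENCODE start of Lhb, 45420820, lies near the middle of its window, so its matches at -59, -50 and -31 lie within the annotated gene.
Cga: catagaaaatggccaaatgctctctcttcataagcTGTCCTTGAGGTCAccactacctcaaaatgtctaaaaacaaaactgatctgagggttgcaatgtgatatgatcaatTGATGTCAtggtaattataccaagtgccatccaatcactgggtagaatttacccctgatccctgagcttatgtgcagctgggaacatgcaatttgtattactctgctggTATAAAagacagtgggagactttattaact
Lhb: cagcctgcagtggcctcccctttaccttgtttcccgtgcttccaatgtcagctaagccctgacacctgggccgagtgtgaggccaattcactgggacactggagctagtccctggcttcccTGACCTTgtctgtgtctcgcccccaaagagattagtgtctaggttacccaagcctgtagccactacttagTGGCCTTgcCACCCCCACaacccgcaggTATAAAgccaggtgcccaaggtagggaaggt
Fshb: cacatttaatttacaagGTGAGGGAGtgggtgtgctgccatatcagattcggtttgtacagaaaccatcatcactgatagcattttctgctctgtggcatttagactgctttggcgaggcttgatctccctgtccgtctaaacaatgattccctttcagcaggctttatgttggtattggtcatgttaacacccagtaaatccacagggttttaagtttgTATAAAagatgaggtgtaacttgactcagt
Tshb: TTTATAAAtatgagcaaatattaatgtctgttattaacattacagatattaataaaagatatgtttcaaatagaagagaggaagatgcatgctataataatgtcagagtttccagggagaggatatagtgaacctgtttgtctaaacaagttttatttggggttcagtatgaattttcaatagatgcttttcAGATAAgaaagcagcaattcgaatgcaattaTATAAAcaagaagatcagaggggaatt
A TATAAA match began at -30 in Cga, at -31 in Lhb, at -30 in Fshb and at -27 in Tshb, counted back from the base before the start as -1, and such a match was present in 12.4% of 32851 promoters of this length. Tshb held further, overlapping matches at its far end, at -248 and, on the opposite strand, at -250. The Nr5a1 type was matched on the opposite strand at -129 and -59 in Lhb and at -215 in Cga (17.5% of promoters), and the Cga match overlaps the cAMP response type at -209. The Egr1 type was matched at -50 in Lhb and, on the opposite strand, at -233 in Fshb (10.0% of promoters). The cAMP response type was matched at -209 and -139 in Cga (7.49% of promoters), and the GATA type at -58 in Tshb (9.99% of promoters). These matches describe letters and are not evidence of binding.

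The deposited libraries held 74758237 UMIs in HFD 1, 97223297 in HFD 2, 92818116 in CTRL 1 and 101903367 in CTRL 2. After filters, 25680 of 34737 barcodes were kept as cells, with a median of 8451.5 UMIs in HFD 1 and 10974 in HFD 2, against 17943 in CTRL 1 and 12330 in CTRL 2. Some libraries shared cell barcodes. HFD 1 and HFD 2 shared 3116 deposited barcodes, HFD 1 and CTRL 2 shared 1423, and every other pair of libraries shared between 14 and 22. Among kept cells, HFD 1 and HFD 2 shared 1336 barcodes, and 96.3% of these fell in the same cell class in both libraries, with a median of 1149.5 UMIs in the copy with fewer and 20539 in the copy with more. Leaving out every copy but the one with the most UMIs removed 24.3% of the kept cells of HFD 1 and at most 1.46% of those of each other library. The main results are therefore also given without these copies.

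Classes were built by clustering from which all 4 subunit genes had been left out, and were named from other markers. Gonadotrope-like cells numbered 698 in HFD 1 and 390 in HFD 2, against 293 in CTRL 1 and 230 in CTRL 2. They came from 2 clusters. A cluster of many UMIs (861 cells, median 27031 UMIs) passed all 8 gonadotrope markers, and a cluster of few UMIs (750 cells, median 1455.5 UMIs) passed 5. HFD 1 supplied 535 cells of the second cluster, and 463 of those were copies of shared barcodes. In the class as a whole, copies were 67% of the cells of HFD 1 but 13.9% of its UMIs. Without copies, gonadotrope-like cells made up 4.05% and 5.65% of kept cells in HFD 1 and HFD 2, against 6.75% and 3.06% in CTRL 1 and CTRL 2. Thyrotrope-like cells numbered 228 in HFD 1 and 227 in HFD 2, against 142 in CTRL 1 and 149 in CTRL 2. Copies were 115 of the 228 in HFD 1, with 9.2% of their UMIs, 1 in HFD 2 and 0 in CTRL libraries. These cells also came from 2 clusters. Trhr was among the leading genes of a cluster of 522 cells, called the Trhr cluster here. The other 224 cells, called the Tshr cluster, were led by Cck, Apoc3, Ces1d and Tshr and passed only Dio2, Gata2 and Isl1 of the thyrotrope markers. Gata2 and Isl1 are on the gonadotrope list too, so the name rests on little there. Pomc, the hormone gene of corticotropes and melanotropes, was 20182 and 19587 CPM in the Tshr cluster of HFD 1 and HFD 2, against 12192 and 15746 in CTRL 1 and CTRL 2. In the Trhr cluster it was 404.0 and 370.3 CPM in HFD libraries, against 543.2 and 431.7 in CTRL libraries.

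Each beta subunit gene was concentrated in a single class, and Cga in both. Levels are CPM of the summed cells, without scaling by gene length, so a ratio of genes is a ratio of captured molecules. Gonadotrope-like cells held 97.5% and 97.6% of all Lhb UMIs in HFD 1 and HFD 2, against 96.3% and 95.9% in CTRL 1 and CTRL 2. For Fshb these shares were 98.9% and 98.1% in HFD libraries, against 97.9% and 96.9% in CTRL libraries. Thyrotrope-like cells held 97.7% and 96.2% of the Tshb UMIs in HFD libraries, against 94.2% and 93.5% in CTRL libraries. Cga was divided between them. Its UMIs were 83.4% and 81.2% gonadotrope-like in HFD 1 and HFD 2, against 75.3% and 73.8% in CTRL 1 and CTRL 2. The thyrotrope-like share of Cga was 15.2% and 16.7% in HFD libraries, against 21.5% and 21.6% in CTRL libraries. The diets did not overlap in these shares, but the shares nearly complement each other and so are not separate observations. No such comparison was made for other genes, and a lack of overlap is common with 2 libraries a diet. The shares depend on how many cells of each class a library holds as well as on the RNA per cell.

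**Figure D1:**
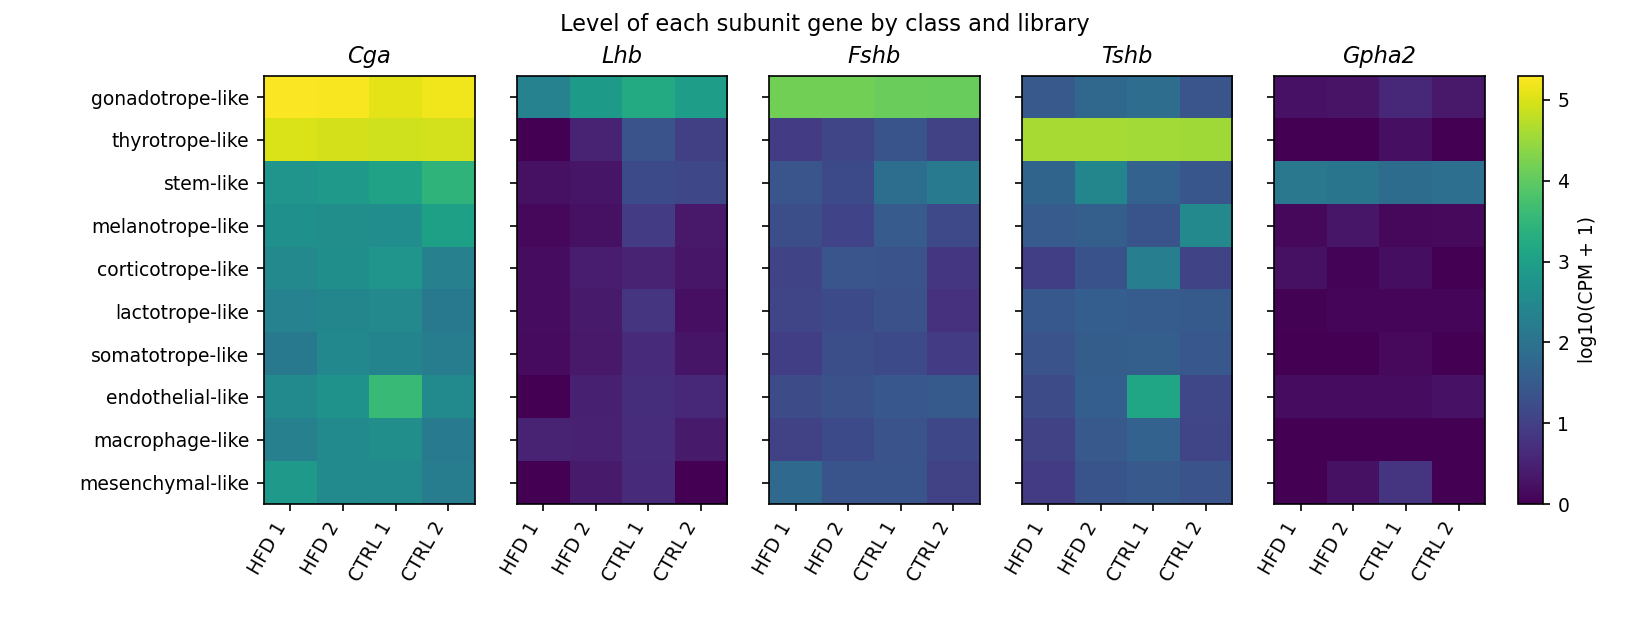
Level of Cga, Lhb, Fshb, Tshb and the related Gpha2 in the 10 classes with at least 30 cells in every library (rows) and the 4 libraries (columns, HFD left of CTRL), coloured by log10(CPM + 1). Cga is brightest in the gonadotrope-like and thyrotrope-like rows, Lhb and Fshb in the gonadotrope-like row, Tshb in the thyrotrope-like row and Gpha2 in the stem-like row.

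In most other classes the subunit genes were at far lower levels, which differed between libraries. Somatotrope-like cells, the largest class, had 140.8 and 290.2 CPM of Cga in HFD 1 and HFD 2, against 247.0 and 163.4 in CTRL 1 and CTRL 2. Lhb there was 0.447 and 1.34 CPM in HFD libraries, against 3.34 and 0.973 in CTRL libraries. A few values stood apart. Endothelial-like cells had 335.5 and 496.9 CPM of Cga in HFD 1 and HFD 2, against 3893 and 326.9 in CTRL 1 and CTRL 2, and those of CTRL 1 also had 1368 CPM of Tshb. The T or NK cell-like class of HFD 2, with 44 cells, had 7422 CPM of Cga, and the melanotrope-like cells of CTRL 2 had 314.3 CPM of Tshb. The cause was not tested.

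In gonadotrope-like cells, HFD libraries had a higher level of Cga and Fshb and a lower level of Lhb, with no overlap between the diets for any of these genes. Cga was 184644 CPM in HFD 1 and 180784 in HFD 2, against 123343 in CTRL 1 and 154874 in CTRL 2. Fshb was 14783 and 15015 CPM in HFD 1 and HFD 2, against 12447 and 11751 in CTRL 1 and CTRL 2. Lhb was 226.0 and 780.6 CPM in HFD libraries, against 1710.3 and 942.8 in CTRL libraries. The HFD libraries were close to each other for Cga and Fshb and far apart for Lhb, which was lowest in HFD 1 and highest in CTRL 1. Tshb was 29.5 and 60.7 CPM in HFD libraries and 77.8 and 23.7 CPM in CTRL libraries, and these overlapped. Gh, the growth hormone gene of somatotropes, was 5873 and 5729 CPM in this class of HFD 1 and HFD 2, against 35974 and 2129 in CTRL 1 and CTRL 2. Gh UMIs count in the total behind each CPM, and their part in these levels was not tested. Groups without overlap are common here, with 51.4% of 12715 genes showing it (14.4% higher and 37% lower in HFD libraries), so the 3 of 4 subunit genes that do so are to be read against that share.

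None of these differences passed the threshold over all genes. The fitted log2 difference, HFD minus CTRL, was 0.51 for Cga (SE 0.09, adjusted p = 0.0869 by edgeR's quasi-likelihood test), 0.41 for Fshb (SE 0.06, adjusted p = 0.0689), -1.29 for Lhb (SE 0.49, adjusted p = 0.254) and -0.07 for Tshb (SE 0.48, adjusted p = 0.962). Thus 0 of 4 subunit genes were called, in a comparison that called 0.118% of all genes, 0.0551% as higher and 0.0629% as lower. At an unadjusted p under 0.05 the count was 3 of 4, where 2146 of all genes (16.9%) were past it. DESeq2 called 2, Cga and Fshb, among 137 genes in all (1.08%). In the cluster of many UMIs alone, where 2.71% of 12438 genes were called (1.36% higher), Cga rose by 0.50 (SE 0.06, adjusted p = 0.00911) and Fshb rose by 0.40 (SE 0.06, adjusted p = 0.0188) on the log2 scale, while Lhb differed by -1.36 (SE 0.45, adjusted p = 0.110). Without the copies of shared barcodes the adjusted p was 0.0956 for Cga, 0.0701 for Fshb and 0.260 for Lhb. The sizes of the Cga and Fshb differences were thus much alike in these fits, and their calls were not.

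Leaving out a library moved Lhb and Tshb more than Cga and Fshb. The difference of Lhb was -0.65 without HFD 1 and -2.43 without HFD 2, neither called, and -0.78 without CTRL 1 (adjusted p = 0.000627) and -1.65 without CTRL 2 (adjusted p = 1.83e-90), both called. In such fits the lone library of a diet is assumed to vary like the other diet's libraries. Cga stayed between 0.36 and 0.68 and Fshb between 0.37 and 0.46, and both were called without CTRL 1 or without CTRL 2. Tshb changed sign, to 0.34 without HFD 1 and to 1.10 without CTRL 1 (adjusted p = 1.44e-05), and was at -0.63 without CTRL 2 (adjusted p = 8.65e-05). Over 13 alternatives the adjusted p of Cga ran from 7.98e-101 to 0.435, with 8 past the threshold, that of Fshb from 4.19e-14 to 0.432, with 8 past it, and that of Lhb from 1.83e-90 to 0.616, with 3 past it.

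**Figure D2:**
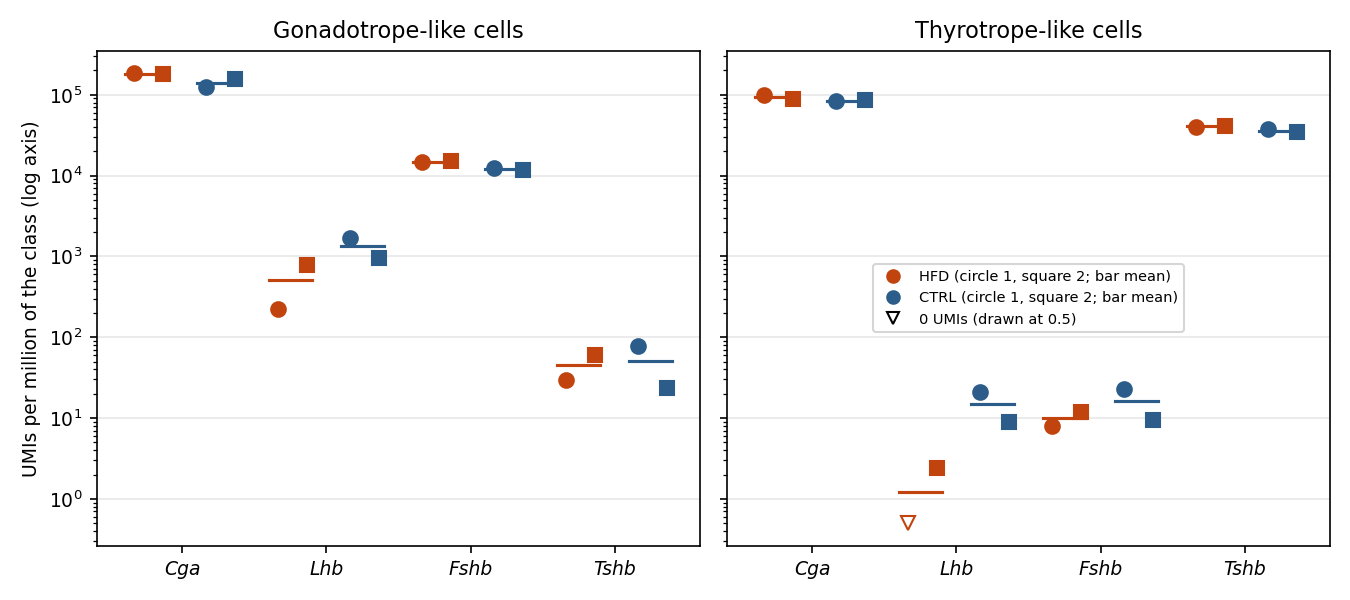
CPM (log axis) of the 4 subunit genes in gonadotrope-like cells (left) and thyrotrope-like cells (right). Red marks are HFD and blue marks CTRL, circles are library 1 and squares library 2, bars are the means of 2 libraries, and the open triangle is Lhb at 0 UMIs in HFD 1. Lhb is the gene whose libraries lie farthest apart in both panels.

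Set against each other within a library, Fshb exceeded Lhb everywhere and by most in the HFD libraries. There were 65.4 Fshb UMIs per Lhb UMI in HFD 1 and 19.2 in HFD 2, against 7.28 in CTRL 1 and 12.5 in CTRL 2. The log2 ratio of Lhb to Fshb was -6.03 and -4.27 in HFD libraries, against -2.86 and -3.64 in CTRL libraries. Both HFD libraries were below both CTRL libraries, and HFD 1 was far below HFD 2. The mean log2 ratio was -5.15 ± 1.25 in HFD and -3.25 ± 0.55 in CTRL (SD, 2 libraries each), a difference of -1.90 (exact two-sided permutation p = 0.333, the smallest that 2 libraries against 2 can give). This ratio needs no scaling between libraries. Without the copies of shared barcodes it was -6.10 and -4.27 in HFD libraries, against -2.86 and -3.64 in CTRL libraries. In the cluster of many UMIs alone it was -6.11 and -4.27 in HFD libraries, against -2.83 and -3.64 in CTRL libraries. Leaving out each library in turn gave differences from -2.78 to -1.01, and the smaller size is the one without HFD 1.

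**Figure D3:**
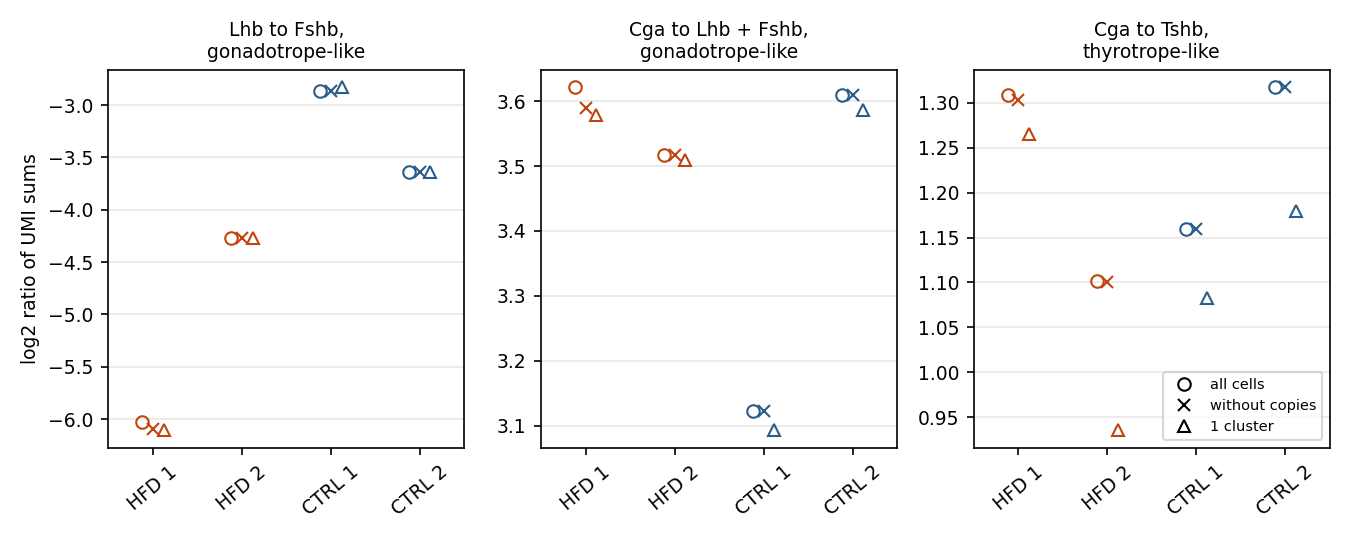
Log2 ratios of summed UMIs in each library, HFD left of CTRL, for Lhb to Fshb and Cga to Lhb plus Fshb in gonadotrope-like cells and Cga to Tshb in thyrotrope-like cells. Circles use all cells, crosses leave out copies of shared barcodes and triangles use only the cluster of many UMIs or the Trhr cluster, and the vertical scales differ between panels. The Lhb to Fshb ratio is below -4 in both HFD libraries and above -4 in both CTRL libraries, while the Cga ratios of the diets overlap.

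Co-expression was counted after thinning each cell to 1000 UMIs, so that depth does not set it. Here and below, cells with fewer UMIs than the depth of a thinning were left out. Cga was detected in 99.5% and 99.7% of gonadotrope-like cells in HFD 1 and HFD 2, against 99.2% and 99.1% in CTRL 1 and CTRL 2. Both Lhb and Fshb were detected in 22.9% of cells in HFD 1 (exact 95% binomial interval 19.6 to 26.5) and 49.7% in HFD 2 (44.6 to 54.8), against 63.9% in CTRL 1 (57.6 to 69.8) and 106 of 212 cells in CTRL 2 (43.1 to 56.9). The share was low in HFD 1 and high in CTRL 1, while HFD 2 and CTRL 2 did not differ beyond their intervals, which cover counting error only. The difference of the diet means was -20.6 percentage points (exact two-sided permutation p = 0.333), and it was -7.19 points or more negative with any library left out, down to -34.0. Without copies the shares were 15.3% and 49.7% in HFD libraries, against 63.9% and 54.4% in CTRL libraries. In the cluster of many UMIs they were 25.8% and 48.1% in HFD libraries, against 77.8% and 53.2% in CTRL libraries. With stricter cells (1000 genes or more, no more than 10% of UMIs mitochondrial) they were 19.6% and 48.4% in HFD libraries, against 78.9% and 63.5% in CTRL libraries, a difference of -37.2 points with HFD 2 well below CTRL 2.

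Most cells without both had Fshb. Fshb without Lhb was found in 72.8% and 45.3% of cells in HFD 1 and HFD 2, against 23.3% and 44.8% in CTRL 1 and CTRL 2. Lhb without Fshb was rare, at 0 of 607 cells in HFD 1 (interval up to 0.606%) and 0.777% in HFD 2, against 2.01% in CTRL 1 and 0.943% in CTRL 2. Cells with neither made up 4.28% and 4.15% in HFD libraries, against 10.8% and 4.25% in CTRL libraries. As a level that free RNA could give, Lhb was detected in 0.0866% and 0.207% of somatotrope-like cells in HFD libraries, against 0.549% and 0.101% in CTRL libraries, at median depths before thinning of 10834.5 and 10763 UMIs in HFD libraries and 21952 and 14284 UMIs in CTRL libraries. Fshb there was detected in 1.34% and 1.90% of cells in HFD libraries, against 1.24% and 1.01% in CTRL libraries. The shares in gonadotrope-like cells, whose median depth was 1694.5 and 24738.5 UMIs in HFD libraries and 25957 and 23602.5 UMIs in CTRL libraries, were far above these.

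**Figure D4:**
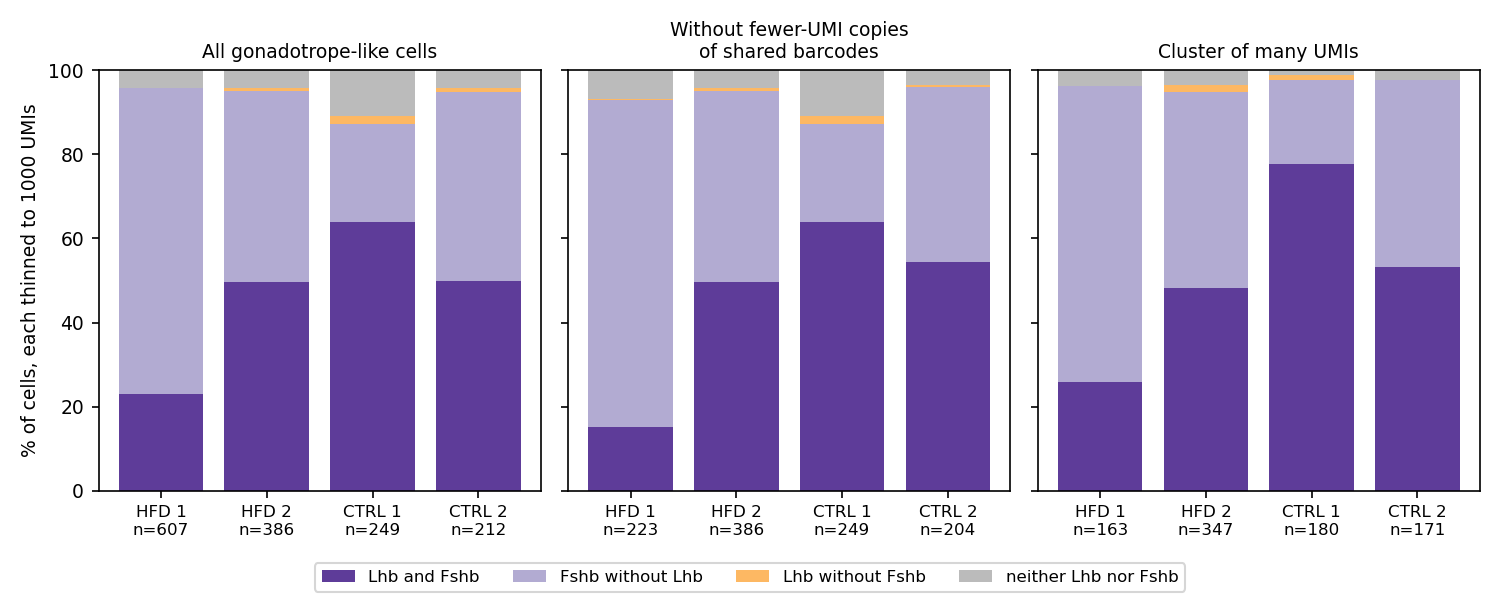
Percent of gonadotrope-like cells, each thinned to 1000 UMIs, with both Lhb and Fshb, Fshb without Lhb, Lhb without Fshb or neither, in all cells, without copies of shared barcodes, and in the cluster of many UMIs. Cells with fewer than 1000 UMIs are left out of every panel. In each panel HFD 1 has the smallest share with both genes (22.9% in all cells) and CTRL 1 the largest (63.9%), and Lhb without Fshb is barely visible.

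Thinning lowers the share for a gene of few UMIs, and at full depth nearly all cells of the cluster of many UMIs had both genes. There, 88.3% and 97.7% of cells had both in HFD 1 and HFD 2, against 98.9% and 98.8% in CTRL 1 and CTRL 2. Among gonadotrope-like cells of both clusters with at least 3000 UMIs, thinned to 3000, 38.9% and 82.2% had both in HFD 1 and HFD 2, against 92% and 87.8% in CTRL 1 and CTRL 2. The median depth of the class in HFD 1 was 1694.5 UMIs, so most of its cells were left out there. HFD 1 had the lowest share in each of these counts. At 10000 UMIs per cell, the median cell of this cluster had 2 and 8 Lhb UMIs in HFD 1 and HFD 2, against 19 and 8 in CTRL 1 and CTRL 2. The median for Fshb was 153 and 152 UMIs in HFD libraries, against 141 and 114 in CTRL libraries. For Cga it was 1916 and 1761 UMIs in HFD libraries, against 1274 and 1468 in CTRL libraries.

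The coefficient of variation between cells of this cluster was higher for Lhb than for Cga or Fshb in every library. At 10000 UMIs it was 79.8% and 58.0% for Lhb in HFD 1 and HFD 2, against 54.5% and 56.0% in CTRL 1 and CTRL 2. For Cga it was 42.4% and 39.9% in HFD libraries, against 49.7% and 42.3% in CTRL libraries. For Fshb it was 43.9% and 47.9% in HFD libraries, against 51.9% and 47.6% in CTRL libraries. This measure includes counting error, which is larger for a gene of few UMIs. The mean of Lhb was 2.21 and 7.76 UMIs in HFD libraries, against 19.2 and 8.92 in CTRL libraries. The mean of Fshb was 149.0 and 148.5 UMIs in HFD libraries, against 137.3 and 118.2 in CTRL libraries. Whether Lhb varied more beyond counting error was not tested. The variance of Lhb was 1.4 and 2.61 times its mean in HFD libraries, against 5.71 and 2.79 times in CTRL libraries, lowest in HFD 1. For Fshb the variance was 28.7 and 34.1 times the mean in HFD libraries, against 37.0 and 26.7 times in CTRL libraries. Across the cells of a library, Lhb and Fshb went together weakly, with a Pearson r of 0.281 over 155 cells of HFD 1 and 0.419 over 338 cells of HFD 2, against 0.460 over 177 cells of CTRL 1 and 0.266 over 161 cells of CTRL 2. Cga and Fshb had an r of 0.547 and 0.361 in HFD libraries, against 0.484 and 0.315 in CTRL libraries. Cga and Lhb had an r of 0.274 and 0.302 in HFD libraries, against 0.376 and 0.136 in CTRL libraries. These cells share a library and a fixed depth, and the values are given as a description.

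**Figure D5:**
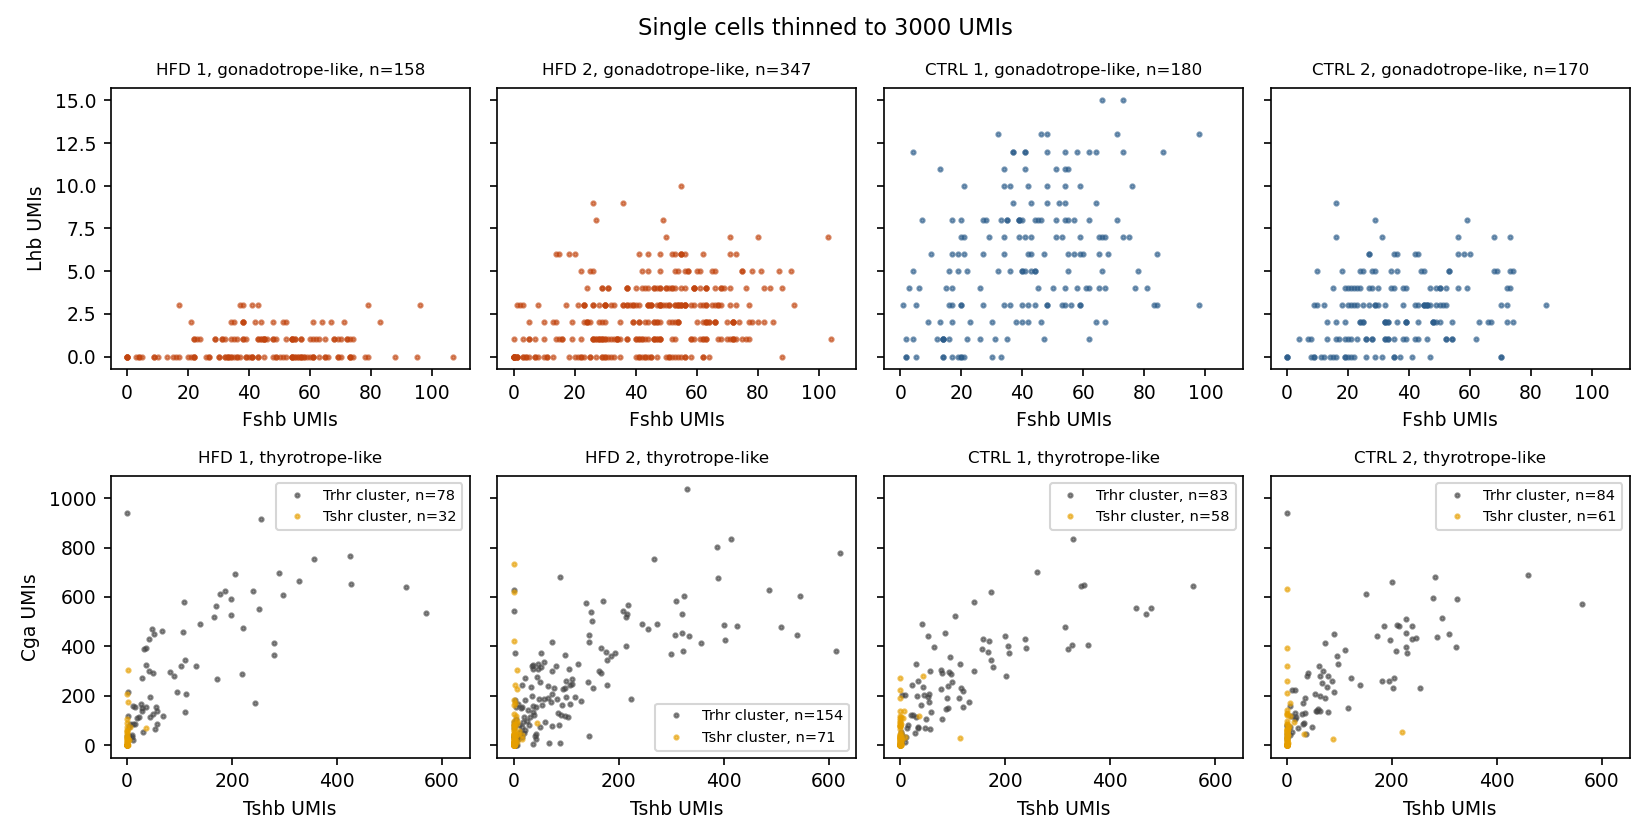
Single cells thinned to 3000 UMIs, HFD libraries left of CTRL libraries. The upper row plots Lhb against Fshb UMIs in the gonadotrope-like cluster of many UMIs and the lower row Cga against Tshb UMIs in the 2 thyrotrope-like clusters; n is the number of cells. Fshb spans a like range in the 4 libraries while Lhb points lie lowest in HFD 1, and the Tshr cluster (orange) lies near 0 for Tshb with Cga present.

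The balance of alpha to beta in gonadotrope-like cells did not separate the diets. There were 12.3 and 11.4 Cga UMIs per Lhb or Fshb UMI in HFD 1 and HFD 2, against 8.71 and 12.2 in CTRL 1 and CTRL 2. CTRL 1 stood low and the other 3 libraries were close together. The mean log2 ratio was 3.57 ± 0.07 in HFD and 3.37 ± 0.34 in CTRL (SD, 2 libraries each), a difference of 0.20 (exact two-sided permutation p = 0.667) that turned to -0.04 without CTRL 1. Gh was 25720.3 and 67189.9 CPM in the few-UMI cluster of HFD 1 and HFD 2, against 178311 and 16853 CPM in CTRL 1 and CTRL 2. Gh UMIs enter neither side of the ratio, and the part of RNA from other classes in it was not tested. In the cluster of many UMIs alone the ratio was still lowest in CTRL 1, at 11.95 and 11.4 in HFD libraries, against 8.53 and 12.0 in CTRL libraries.

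In thyrotrope-like cells, Cga and Tshb were the abundant subunit genes, and both were a little higher in HFD libraries. Cga was 99782 CPM in HFD 1 and 88781 in HFD 2, against 83721 in CTRL 1 and 86029 in CTRL 2. Tshb was 40295 and 41368 CPM in HFD libraries, against 37485 and 34528 in CTRL libraries. The diets did not overlap for either gene, nor for Lhb, which holds for 38.2% of all 11206 genes tested in this class (12.5% higher and 25.7% lower in HFD libraries). The fitted log2 difference was 0.21 for Cga (SE 0.06, adjusted p = 0.190 by edgeR's test) and 0.24 for Tshb (SE 0.06, adjusted p = 0.0896), neither called. Without copies of shared barcodes they were 0.18 (adjusted p = 0.344) and 0.22 (adjusted p = 0.273). Without HFD 2 Cga was called at 0.30 (adjusted p = 0.00051), and without HFD 1 Tshb was called at 0.26 (adjusted p = 0.00701). In the Trhr cluster alone both differences were near 0, at -0.01 for Cga (SE 0.07, adjusted p = 0.995) and 0.02 for Tshb (SE 0.07, adjusted p = 0.987), in a fit that called 0.414% of 9902 genes. Tshb there was 49874 and 54003 CPM in HFD 1 and HFD 2, against 53693 and 49213 in CTRL 1 and CTRL 2. The Tshr cluster, low in both genes, made up 33 of 228 and 72 of 227 thyrotrope-like cells in HFD libraries, against 58 of 142 and 61 of 149 in CTRL libraries. None of its cells was a copy of a shared barcode, and without copies it made up 33 of 113 and 72 of 226 cells in HFD libraries.

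The 2 thyrotrope-like clusters differed in their subunits. Cga was 119861 and 103274 CPM in the Trhr cluster of HFD 1 and HFD 2, against 113715 and 111537 in CTRL 1 and CTRL 2. In the Tshr cluster it was 19859 and 42171 CPM in HFD libraries, against 21867 and 29292 in CTRL libraries. Tshb in the Tshr cluster was 2165 and 733.5 CPM in HFD libraries, against 4059 and 1867 in CTRL libraries. Every library thus had far less of both genes in the Tshr cluster, and its diets overlapped. Thinned to 1000 UMIs, Tshb and Cga were found together in 88.8% and 86.5% of Trhr cluster cells in HFD libraries, against 92.9% and 87.5% in CTRL libraries. Cga without Tshb was the main pattern of the Tshr cluster, at 72.7% and 56.9% of cells in HFD libraries, against 69% and 60.7% in CTRL libraries. Somatotrope-like cells set the background for such a share, since Cga was found in 14.9% and 23.1% of them in HFD libraries, against 21.6% and 10.4% in CTRL libraries.

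Within the Trhr cluster, Tshb varied more between cells than Cga did. Cells with fewer than 10000 UMIs were left out, 136 of 195 in HFD 1 and 18 of 155 in HFD 2, against 3 of 84 in CTRL 1 and 10 of 88 in CTRL 2. The HFD 1 values between cells thus describe only its deeper cells. At 10000 UMIs the coefficient of variation of Tshb was 97.1% and 111.8% in HFD 1 and HFD 2, against 99.2% and 94.4% in CTRL 1 and CTRL 2. For Cga it was 61.3% and 78.2% in HFD libraries, against 65.7% and 66.0% in CTRL libraries. Across cells the genes went together, with a Pearson r of 0.723 over 59 cells of HFD 1 and 0.753 over 137 cells of HFD 2, against 0.769 over 81 cells of CTRL 1 and 0.704 over 78 cells of CTRL 2. The balance of alpha to beta in the class was 2.48 and 2.15 Cga UMIs per Tshb UMI in HFD libraries, against 2.23 and 2.49 in CTRL libraries. These ratios overlapped, with a log2 difference of -0.03 (exact two-sided permutation p = 0.667). The sign of that difference changed without HFD 2, at 0.07, and without CTRL 2, at 0.05.

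Lhb was the subunit gene that changed in thyrotrope-like cells, at a very low level. It had 0 and 9 UMIs in HFD 1 and HFD 2, against 64 and 22 in CTRL 1 and CTRL 2, or 0 and 2.41 CPM against 21.3 and 8.94 CPM. Lhb fell by 3.14 on the log2 scale (SE 0.55, adjusted p = 0.00807 by edgeR's test), so that 1 of 4 subunit genes was called in a comparison that called 0.419% of all genes. With 0 UMIs in a library the fitted size depends on the prior count. Most of these UMIs were in the Tshr cluster, with 0 and 7 in HFD libraries, against 54 and 19 in CTRL libraries. In the Trhr cluster there were 0 and 2 in HFD libraries, against 10 and 3 in CTRL libraries, too few for a test. The call was kept in 10 of 11 alternatives, with -3.10 without copies of shared barcodes (adjusted p = 0.00388), and lost without CTRL 1, where the difference was -2.43 (adjusted p = 0.180).

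Of the 8 gonadotrope markers, 6 were measured in this fit, and Tgfbr3l passed it. Summed over the 6 markers not on the thyrotrope list, the level was 42.3 and 60.9 CPM in HFD 1 and HFD 2, against 164.1 and 130.8 in CTRL 1 and CTRL 2. No marker was at 0, and Tgfbr3l alone supplied most of the sum in both CTRL libraries. Tgfbr3l, a gonadotrope marker that encodes a coreceptor for inhibin B, was 15.7 and 24.9 CPM in thyrotrope-like cells of HFD libraries, against 97.0 and 86.5 in CTRL libraries (log2 difference -2.02, SE 0.17, adjusted p = 9.08e-07), and differed by -0.02 in the Trhr cluster alone (adjusted p = 0.998). Gnrhr was 6.05 and 5.34 CPM in HFD libraries, against 15.6 and 8.94 in CTRL libraries (log2 difference -1.10, adjusted p = 0.408). Foxp2 was at -0.84 (adjusted p = 0.534), Nr5a1 at 0.15 (adjusted p = 0.954), Isl1 at 0.15 (adjusted p = 0.834) and Gata2 at 0.19 (adjusted p = 0.80). Lhb in somatotrope-like and lactotrope-like cells was likewise highest in CTRL 1. In stem-like cells Lhb was 0.717 and 0.999 CPM in HFD libraries, against 14.7 and 13.0 in CTRL libraries. Gnrhr there was 2.39 and 0.666 CPM in HFD libraries, against 8.96 and 28.1 in CTRL libraries. A lower Lhb in HFD libraries was thus not particular to thyrotrope-like cells. The part of gonadotrope RNA or of the Tshr cluster in the Lhb result was not tested. Fshb in thyrotrope-like cells was 7.86 and 12.0 CPM in HFD libraries, against 22.9 and 9.34 in CTRL libraries, which overlapped (log2 difference -0.59, SE 0.34, adjusted p = 0.755), and it changed sign to 0.20 without CTRL 1.

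A single model over both classes, blocked by library, tested whether the diet difference of Cga was larger in gonadotrope-like than in thyrotrope-like cells. The difference of differences was 0.30 on the log2 scale (SE 0.07, adjusted p = 0.123 by edgeR's test) and was not called, in a fit that called 0.155% of 12933 genes. With only the cluster of many UMIs and the Trhr cluster it was 0.52 (SE 0.06, adjusted p = 0.00103), without CTRL 2 it was 0.44 (adjusted p = 1.18e-08), and without copies of shared barcodes it was 0.33 (adjusted p = 0.109). Past the threshold were 6 of 11 alternatives.

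Summed over all kept cells of the gland, Cga was 17112 CPM in HFD 1 and 22957 in HFD 2, against 13818 in CTRL 1 and 10820.2 in CTRL 2. Fshb was 1156 and 1577 CPM in HFD libraries, against 1073 and 625.3 in CTRL libraries. Both were without overlap, which holds for 43% of 18509 genes (27.4% higher in HFD libraries). Lhb was 17.9 and 82.4 CPM in HFD libraries and 149.9 and 50.7 CPM in CTRL libraries, and Tshb was 1072 and 1857 CPM in HFD libraries and 1413 and 1001 CPM in CTRL libraries, and both overlapped. The log2 difference was 0.66 for Cga (SE 0.19, adjusted p = 0.402 by edgeR's test), 0.64 for Fshb (SE 0.29, adjusted p = 0.502), -1.04 for Lhb (SE 0.78, adjusted p = 0.661) and 0.24 for Tshb (SE 0.29, adjusted p = 0.790). Of the 4 genes 0 were called, where 0.0108% of all genes were, 1 had an unadjusted p under 0.05, as did 1928 of all genes (10.4%), and DESeq2 called 0, where it called 199 genes in all (1.08%). The sign of Tshb changed without HFD 2, to -0.23, and without CTRL 2, to -0.01, and Lhb ran from -2.55 without HFD 2 to -0.01 without CTRL 1, with -0.32 without HFD 1 and -1.63 without CTRL 2. Cga ran from 0.42 without HFD 2 to 0.88 without CTRL 1, and Fshb from 0.28 without CTRL 2 to 1.12 without CTRL 1, with 0.38 without HFD 2. Without copies of shared barcodes the differences were 0.60 for Cga, 0.59 for Fshb, -1.07 for Lhb and 0.19 for Tshb. In such sums fewer cells of a class and less RNA per cell cannot be told apart.

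The mouse family has a further alpha-type gene, Gpha2, and a further beta-type gene, Gphb5, whose products pair as thyrostimulin. Gpha2 was found almost wholly in stem-like cells, which are marked by Sox2 and Sox9 and held 97.9% and 91.2% of its UMIs in HFD 1 and HFD 2, against 91.6% and 95.9% in CTRL 1 and CTRL 2. Its level there was 134.0 and 113.6 CPM in HFD libraries, against 75.2 and 83.8 CPM in CTRL libraries. Over the gland it was 9.0 and 8.63 CPM in HFD libraries, against 7.03 and 5.94 CPM in CTRL libraries, without overlap and without a call (log2 difference 0.40, SE 0.13, adjusted p = 0.416 by edgeR's test). Gphb5 had 1 UMI in all libraries together.

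Likeness of pattern was measured by the Pearson correlation of log2(CPM + 1) over 40 points, the 10 classes in the 4 libraries, for 17644 genes. Points of a library share its depth and free RNA. Cga was most like Platr9 (0.960), Shisal2b (0.940), Grem1 (0.935), Cndp1 (0.928) and Rpp25 (0.918). Grem1 encodes a secreted antagonist of bone morphogenetic proteins. Lhb was most like Tgfbr3l (0.960), Atf7ip2 (0.935), Bean1 (0.934), 4930434J06Rik (0.932) and Nr0b1 (0.930), the last a nuclear receptor that acts with Nr5a1. Fshb was most like Slurp2 (0.970), Gm21149 (0.962), Speer4e (0.962), Cfap73 (0.958) and 1810064F22Rik (0.956). Tshb was most like Trhr (0.942), Grxcr2 (0.932), Otof (0.918), Jph4 (0.911) and Grin2c (0.910). Among the subunit genes, Lhb and Fshb were at 0.925, Cga was at 0.727 with Lhb, 0.670 with Fshb and 0.636 with Tshb, and Tshb was at 0.06 with Lhb and -0.11 with Fshb. The patterns of the gonadotropin beta genes were thus more like each other than like that of Cga, which spans both classes.

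A list of 46 genes of the pathways that act on these subunits was described beside them. It was chosen with earlier results of these data known, so its counts and medians are a description and not a test of the list. Over the whole gland 46 were measured, 23 higher and 23 lower in HFD libraries. There 0 passed, where 0.0108% of all genes did. Fosb was at a log2 difference of -0.64 over the gland (SE 0.11, adjusted p = 0.292 by edgeR's test). Egr1 was at -0.59, Fos at -0.56 and Jun at 0.02 over the gland. In gonadotrope-like cells 41 were measured and 2 passed the test, both lower in HFD libraries, where 0.0629% of all genes passed as lower. The median log2 difference of the list was -0.16, against 0.000227 over all genes. The genes that passed were Fosb and Jun, parts of the AP-1 factor that gonadotropin-releasing hormone induces. Fosb was 41.7 and 31.5 CPM in HFD libraries, against 115.5 and 99.5 in CTRL libraries (log2 difference -1.47, SE 0.15, adjusted p = 0.0368 by edgeR's test). Jun was 251.0 and 231.2 CPM in HFD libraries, against 488.5 and 426.1 in CTRL libraries (log2 difference -0.81, SE 0.10, adjusted p = 0.0368). Both genes were lowest in the HFD libraries, without overlap. Fosb missed the threshold without HFD 2 (adjusted p = 0.277), and Jun without HFD 1 (0.136) or HFD 2 (0.379).

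Egr1, which acts on the Lhb promoter downstream of gonadotropin-releasing hormone, was 414.0 and 437.6 CPM in gonadotrope-like cells of HFD libraries, against 686.2 and 902.8 in CTRL libraries (log2 difference -0.78, SE 0.12, adjusted p = 0.0644). Gnrhr was 703.0 and 777.8 CPM in HFD libraries, against 943.4 and 1424 in CTRL libraries (log2 difference -0.56, SE 0.16, adjusted p = 0.188). Egr1 was called without CTRL 1 (adjusted p = 2.2e-16) or CTRL 2 (1.02e-08), and Gnrhr without CTRL 1 (9.28e-15), while Gnrhr was at -0.24 without CTRL 2 (0.066). In the cluster of many UMIs alone 7 of the 41 genes passed, all lower, where 1.35% of all genes passed as lower. They were Fosb, Jun, Fos, Egr1, Atf3, Gnrhr and Smad3, with Egr1 at -0.88 (adjusted p = 0.00919) and Gnrhr at -0.61 (adjusted p = 0.0374). Factors that set up the gonadotrope did not pass in the whole class, with Nr5a1 at 0.01 (SE 0.13, adjusted p = 0.967) and Foxl2 at -0.11 (SE 0.11, adjusted p = 0.636). The sign of Nr5a1 changed without CTRL 1, to -0.16, and that of Foxl2 without CTRL 2, to 0.02. Inhbb, the activin B and inhibin B subunit, was at 0.20 (SE 0.11, adjusted p = 0.403).

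In thyrotrope-like cells 42 genes of the list were measured and 5 passed, all lower in HFD libraries, where 0.232% of all genes passed as lower, and the median of the list was -0.06, against 0.000564 over all genes. Beside Tgfbr3l these were the immediate-early genes Fosb (-1.09, SE 0.17, adjusted p = 0.00251), Egr1 (-0.72, SE 0.12, adjusted p = 0.00442), Fos (-0.58, SE 0.10, adjusted p = 0.00613) and Junb (-0.63, SE 0.12, adjusted p = 0.0156). Fos missed the threshold without CTRL 1 (adjusted p = 0.0814), and Egr1 (0.0807) and Junb (0.0943) missed it without CTRL 2. Junb also missed it with no doublet removed (0.0641), and DESeq2 called neither Fosb (0.878) nor Junb (0.402). In the Trhr cluster alone Fosb, Egr1 and Junb passed and Fos did not (adjusted p = 0.129). Jun, uncalled in both fits, differed in sign between them. By edgeR's test it was at -0.76 in the class (SE 0.17, adjusted p = 0.0628). In the Trhr cluster alone Jun was at 0.76 (SE 0.22, adjusted p = 0.174). Trhr was 119.1 and 112.0 CPM in HFD libraries, against 91.0 and 80.8 in CTRL libraries (log2 difference 0.48, SE 0.12, adjusted p = 0.111). Dio2, which makes active thyroid hormone inside the cell, was at 0.28 (SE 0.12, adjusted p = 0.613), and the thyroid hormone receptor gene Thrb at 0.17 (SE 0.12, adjusted p = 0.806). Gata2 and Pou1f1, which act together on the Tshb promoter, were at 0.19 (SE 0.13, adjusted p = 0.80) and 0.09 (SE 0.12, adjusted p = 0.920). Gata2 was at -0.0015 without HFD 2 and Pou1f1 at -0.05 without CTRL 1. Without copies of shared barcodes, the 2 genes that passed in gonadotrope-like cells and the 5 in thyrotrope-like cells kept their direction and their calls, while Egr1 and Gnrhr in gonadotrope-like cells and Trhr in thyrotrope-like cells stayed uncalled.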

How the data were processed

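The authors deposited raw UMI counts (whole numbers for each gene and barcode), made with Cell Ranger 6.1.2, per the file headers. Seurat 4.3 and mm10 are named without roles, per the submitters' processing notes. Cells had 500 genes or more and no more than 20% of UMIs from mitochondrial genes. The 1540 barcodes most like simulated doublets were removed (0.8% per 1000 cells), and 25680 cells formed 28 clusters without the 4 subunit genes (scikit-learn 1.9.0 and leidenalg 0.10.2, Leiden resolution 0.8), of which 168 cells stayed unnamed. A cluster took a class name where at least 3 of that class's markers, each in 10% of its cells, had a log2 fold of 1 or more.

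UMI counts were summed per library and class and tested with edgeR 4.0.16 (R 4.3.3): TMM, filterByExpr, quasi-likelihood F-test, Benjamini-Hochberg adjustment over all genes, threshold 0.05, SE from the F statistic. The script was tested on simulated data. DESeq2 1.42.0 was an alternative. CPM carries no TMM scaling. Ratios and shares were tested by exact permutation over libraries. Named were the 4 genes, Gpha2, Gphb5, the 5 genes most like each, and genes of the pathway list. Members, lists and tests were chosen with earlier results of these data known. The fits without copies of shared barcodes and in single clusters were added after seeing the data. The labels do not say that replicate numbers pair the samples, so the main fits had no block.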

Additional observations from a re-analysis of the deposited data

How the results depend on the processing

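Of 472 alternatives of 38 results, 358 were counted as the same. For a fitted difference this means direction and side of the threshold, and for a ratio or share direction only. For a number of genes called it means a change within a set factor. Of the rest, 51 passed the threshold where the main fit did not, 12 lost it and 26 were numbers of genes called that moved further. The other 25 turned in sign, none of them a value called with all 4 libraries. The number of genes called in gonadotrope-like cells, 15, became 889 with no low-count filter, 204 with stricter cells (1000 genes or more, no more than 10% of UMIs mitochondrial), 281 with no doublet removed, 144 with the subunit genes kept for clustering, 337 in the cluster of many UMIs and 137 with DESeq2. Leaving out each library gave 0 to 1427, where 0 by edgeR (without HFD 2) went with 986 genes at an unadjusted p under 0.05. In thyrotrope-like cells 47 became 134 with no filter, 31 with no doublet removed, 75 with the subunit genes kept and 21 with DESeq2, and 71 to 138 with a library left out. In the whole gland 2 became 87 with no filter, 199 with DESeq2 and 3 to 16 with a library left out. With the replicate number as a block the counts were 48, 101 and 5. The labels do not say that same-numbered libraries belong together. Their deviations correlated at 0.08, -0.003 and 0.04 over the genes of these sums. With 2 libraries a diet this cannot tell whether they share a batch. The block also called Cga (adjusted p = 0.000178), Tshb (0.00011) and Trhr (0.018) in thyrotrope-like cells and Egr1 in gonadotrope-like cells (0.0275). The causes were not tested.

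The Cga interaction passed at 0.31 with no filter, 0.27 with the stricter cells, 0.34 with no doublet removed, 0.25 with the subunit genes kept and 0.52 in single clusters, and ran from 0.18 to 0.44 with a library left out. The log2 ratio of Cga to Lhb plus Fshb ran from -0.04 to 0.45 with a library left out, and that of Cga to Tshb from -0.14 to 0.07, with 0.0034 where no doublet was removed. Tshb in gonadotrope-like cells turned to 0.05 with the block, 0.17 with no doublet removed, 0.28 with the subunit genes kept and 0.82 in the cluster of many UMIs, and ran from -0.70 to 1.10 with a library left out. There it turned to 0.34 without HFD 1 and 1.10 without CTRL 1. Nr5a1 there turned to -0.01 with the stricter cells, with the subunit genes kept and in the cluster of many UMIs, and to -0.16 without CTRL 1, and Foxl2 turned to 0.02 without CTRL 2. In thyrotrope-like cells Cga turned to -0.01 and Pou1f1 to -0.04 in the Trhr cluster. Fshb turned to 0.07 with the stricter cells, 0.40 with no doublet removed, 0.32 in the Trhr cluster and 0.20 without CTRL 1, running from -1.04 to 0.20 with a library left out. With a library left out, Gata2 ran from -0.0015 to 0.30, Pou1f1 from -0.05 to 0.24 and, over the gland, Tshb from -0.23 to 0.59, with -0.01 without CTRL 2. DESeq2 gave no adjusted p for Lhb and Fshb in thyrotrope-like cells, and keeping the subunit genes for clustering does not bear on the whole gland.

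Depth limits Lhb in thyrotrope-like cells, which rests on 0 to 64 UMIs a library. Tshb in gonadotrope-like cells, at 23.7 to 77.8 CPM, was close to its 21.6 to 38.7 CPM in somatotrope-like cells. With 2 libraries a diet, exact tests cannot go below 0.333.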
